A study of Homo sapiens with 6 samples.

Results

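The genome carries envelope genes left by retroviruses that once infected the germ line, and a small number of them have kept an open reading frame and are used by the host. The 7 such genes described here are ERVV-1, ERVV-2, ERVMER34-1, ERV3-1, ERVW-1, ERVFRD-1 and ERVH48-1. They were chosen by name from the family, and ERVV-1 and ERVV-2 were put on the list because of their large fall in the comparison described here, so their own difference is given as a description with no test. All 7 were among the 17448 genes listed, and 4 of them (ERVV-1, ERVV-2, ERVMER34-1 and ERV3-1) passed the filter on low counts, which 12951 genes passed in all. Poly(A)-selected RNA was sequenced from HCC2814, a line of human lung squamous cell carcinoma (LUSC). WT cells (n = 3) had received non-targeting guide RNA (sgCtrl). MLST8-KO cells (n = 3) had received guide RNA against MLST8, a subunit shared by mTORC2 and mTORC1. Guides were delivered with Cas9 by lentivirus and the cells were selected with antibiotic, with no cloning stated for this line. The study used this contrast to ask what loss of mTORC2 signaling does to gene expression in LUSC. A supplementary legend of the paper that covers RNA-seq values among other panels describes its data as coming from independent experiments. How each RNA-seq replicate was made is not stated there. A legend for western blots numbers the control and MLST8-targeted cells of this line, without saying whether the numbers are guides or replicates. Whether those are the cells sequenced is not stated either.

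A retroviral envelope protein binds a receptor on a target cell and then fuses the viral and cellular membranes. Host copies that kept this ability are known best from the placenta, where syncytin-1 (ERVW-1) and syncytin-2 (ERVFRD-1) fuse trophoblasts into the syncytiotrophoblast, and suppressyn (ERVH48-1) is a secreted envelope fragment that blocks syncytin-1 at its receptor. ERVV-1 and ERVV-2 are neighbouring envelope genes also known from placenta, ERVMER34-1 is among the oldest envelopes captured by primates' ancestors and is known from placenta and some tumors, and ERV3-1 is a widely expressed envelope with a premature stop. Loci of this kind are normally kept silent by DNA methylation and by heterochromatin placed through KRAB zinc finger proteins, TRIM28 and SETDB1.

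ERVV-1 and ERVV-2 are near copies, which bears on every value given for them. ERVV-1 (Entrez gene 147664) lies on chromosome 19 from 53013921 to 53016122 on the plus strand with 1 exon, and ERVV-2 (Entrez gene 100271846) from 53044738 to 53051076 on the same strand with 2 exons, both in GRCh38 as GENCODE annotates them, with 28.6 kb between them. Their transcripts of 2202 and 2431 bases aligned over 1988 bases with 95.88% identity, and in the 1433 aligned coding bases 24 differed (98.33% identity). The longest identical run was 664 bases. Of all windows of 50 bases, 51.05% in ERVV-1 and 46.14% in ERVV-2 occurred unchanged in the other gene and in no other gene's transcript, and a read lying within such a window fits both genes. The pair of coding windows of 60 bases that differs most shows where a read can tell the genes apart. Both windows are exonic and on the plus strand, and capitals mark the 6 positions that differ.
ERVV-1, chr19:53015395-53015454: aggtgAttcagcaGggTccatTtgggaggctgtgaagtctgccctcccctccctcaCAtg
ERVV-2, chr19:53050559-53050618: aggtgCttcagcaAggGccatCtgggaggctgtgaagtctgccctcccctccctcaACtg
At the start of the coding sequence, by contrast, the first 60 bases of both genes are the same, and no read lying within them can be assigned. They are printed once, from ERVV-1.
ERVV-1, chr19:53014091-53014150: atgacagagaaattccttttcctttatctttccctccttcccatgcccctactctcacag

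RefSeq promoter entries (GRCh38.p14) were found for 4 of the 7 genes, ERVV-1, ERVMER34-1, ERV3-1 and ERVW-1, and those of ERVV-1 and ERVMER34-1 are shown because the levels of these genes differed in opposite directions. The 250 bases before each RefSeq start are printed 5′ to 3′ on the strand of the gene, with capitals for the motifs searched. GENCODE places the start of ERVMER34-1 further upstream, at 52751640, so most of its printed bases lie within the gene as GENCODE annotates it.
ERVV-1, chr19:53013671-53013920, plus strand: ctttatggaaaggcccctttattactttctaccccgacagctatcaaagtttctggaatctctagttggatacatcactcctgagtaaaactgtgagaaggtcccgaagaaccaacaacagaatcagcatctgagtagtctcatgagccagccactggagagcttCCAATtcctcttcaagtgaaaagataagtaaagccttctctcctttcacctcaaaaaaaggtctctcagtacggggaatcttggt
ERVMER34-1, chr4:52751426-52751675, minus strand: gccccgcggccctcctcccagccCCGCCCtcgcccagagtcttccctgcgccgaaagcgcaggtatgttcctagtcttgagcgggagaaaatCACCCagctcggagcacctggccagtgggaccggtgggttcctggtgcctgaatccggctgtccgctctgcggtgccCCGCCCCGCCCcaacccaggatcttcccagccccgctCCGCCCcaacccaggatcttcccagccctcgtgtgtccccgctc
Over the whole entry, which adds 50 bases after the start, the ERVV-1 promoter had a GC content of 45.3% and 5 CpG sites, and 29.6% of the 35114 RefSeq promoters had fewer. The ERVMER34-1 promoter had a GC content of 68.7% and 24 CpG sites, with 66.1% of promoters below it. Motifs were searched on both strands: the TATA box TATAAA, the CCAAT box, the AP-1 motif TGACTCA, the core GACGTC of the cAMP response element, the hypoxia motif ACGTG, the E-box CACGTG (which holds ACGTG), the KLF motif CACCC and the Sp1 motif GGGCGG. ERVV-1 held 1 CCAAT box, which 34.6% of all promoters hold, and none of the others. ERVMER34-1 held 4 copies of GGGCGG (45.0% of promoters hold it), printed as their reverse complement with 2 copies overlapping by 1 base, and 1 CACCC (59.9%). A match describes the letters only.

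Sequencing was of similar depth throughout, with estimated counts that summed to between 14381673 and 15744154 per sample. MLST8 itself, the targeted gene, was at 874, 827 and 842 counts in the WT samples and 395.82, 629 and 401 in the MLST8-KO samples (log2 fold change -0.96 ± 0.15 SE, adjusted p = 0.00339 by edgeR's quasi-likelihood test), so the transcript was lower in all 3 but not lost. The 10 squamous epithelium markers checked were all detected and all called higher in MLST8-KO cells, where 16.3% of all genes tested were called higher. They summed to 14187 to 21663 CPM (counts scaled to library size after TMM normalization) in WT and 25036 to 28027 in MLST8-KO samples. MLST8-KO replicate 1 stood apart in that 12 liver transcripts summed to 281 CPM there and to between 1.01 and 7.89 CPM in the other 5 samples. Markers of the syncytiotrophoblast, the tissue in which these envelope genes are best known, were close to absent. Of 20 listed, 12 were in the table, the highest count of any was 19, and their summed level was 3.60 to 4.75 CPM in WT and 1.53 to 2.47 CPM in MLST8-KO samples.

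ERVV-1 and ERVV-2 were the most abundant envelope transcripts in WT cells and were lower in every MLST8-KO sample. ERVV-1 was at 409.14, 670.09 and 1284 estimated counts in WT replicates 1 to 3 and at 139.77, 106.92 and 137.72 in the MLST8-KO samples. ERVV-2 was at 380.46, 526.77 and 912 counts in WT and at 85.07, 108.19 and 97.27 in MLST8-KO samples. The groups did not overlap for either gene, and WT replicate 3 was the highest and WT replicate 1 the lowest WT sample for both. The mean level of ERVV-1 was 55.3 ± 33.7 CPM in WT and 8.15 ± 1.34 CPM in MLST8-KO cells (SD, n = 3 each), and that of ERVV-2 was 42.4 ± 21.0 and 6.13 ± 0.603 CPM. The log2 fold changes were -2.76 ± 0.38 and -2.79 ± 0.31 (SE, edgeR). Of all genes tested, 15.7% were called lower and 24.2% had every MLST8-KO sample below every WT sample; nothing is read from these shares for ERVV-1 and ERVV-2, since this contrast chose them.

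**Figure D1:**
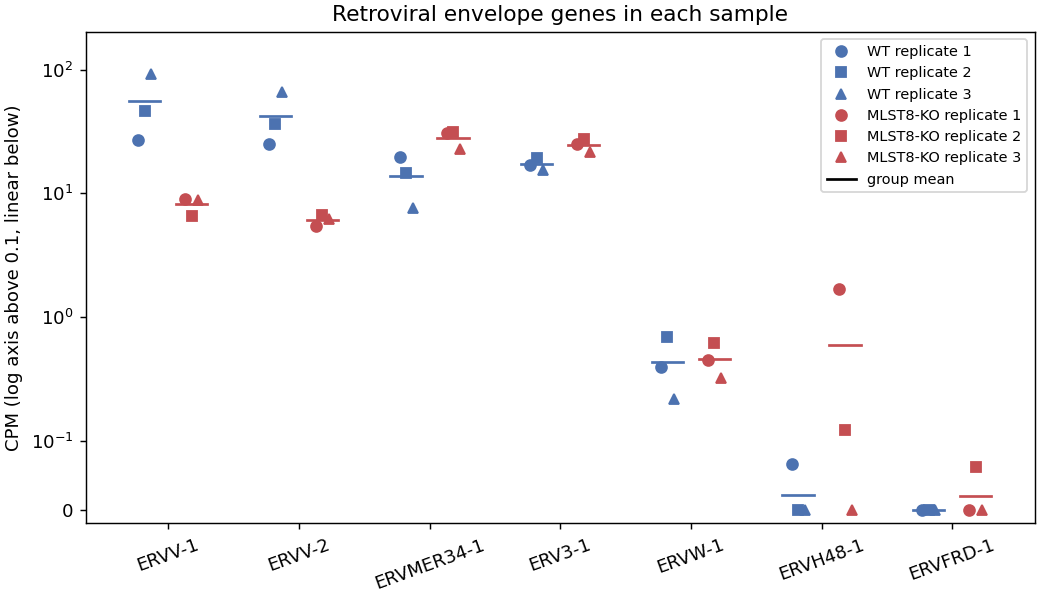
Level of each of the 7 envelope genes in CPM (vertical axis, logarithmic above 0.1 and linear below) in the 3 WT (blue) and 3 MLST8-KO (red) samples; the marker shape gives the replicate and a horizontal line the group mean. ERVV-1 and ERVV-2 lie lower, and ERVMER34-1 and ERV3-1 higher, in every MLST8-KO sample, while ERVW-1, ERVH48-1 and ERVFRD-1 lie near the bottom in both groups.

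Because reads may be split between the near copies, their counts were also summed, which removes any effect of how reads were shared out within the pair. The sum was 789.6, 1196.86 and 2196 counts in WT and 224.84, 215.11 and 234.99 in MLST8-KO samples. It fell from 97.7 ± 54.7 to 14.3 ± 0.901 CPM (log2 fold change -2.77 ± 0.34 SE), which is 6.84-fold lower. The WT samples differed among themselves, with the highest 3.03 times the lowest in CPM, whereas the MLST8-KO samples differed by 1.13 times. With WT replicate 3 left out, the sum had a log2 fold change of -2.24, the value nearest to 0 among the fits that left out 1 sample. In bulk RNA, fewer cells expressing a gene and less RNA per cell cannot be told apart.

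The share of ERVV-1 within the sum shows how the pair was divided in each sample. It rests on the counts that chose the pair, and genes chosen because both fell will tend to keep their ratio, so it is a description with no test. ERVV-1 made up 51.8%, 56.0% and 58.5% of the summed counts in WT samples and 62.2%, 49.7% and 58.6% in MLST8-KO samples. The groups overlapped throughout. The means were 55.4% ± 3.36 and 56.8% ± 6.42 (SD), a difference of 1.40 percentage points. The binomial 95% intervals (Clopper-Pearson, counting error only) were wide in the shallower MLST8-KO values, from 42.9% to 56.6% in replicate 2 and from 55.5% to 68.6% in replicate 1. The sign of the difference turned without WT replicate 1 (-0.40 points) and again with MLST8-KO replicate 1 left out (-1.27 points). These shares also rest on how the authors' software split reads that fit both genes.

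ERVMER34-1 moved the other way. ERVMER34-1 (Entrez gene 100288413; chromosome 4, 52722618 to 52751640, minus strand, GRCh38) was at 294, 211 and 105 counts in WT and at 472, 503 and 356 in MLST8-KO samples. Every MLST8-KO sample lay above every WT sample, and WT replicate 3, the highest for the ERVV pair, was the lowest for ERVMER34-1. Over the genes tested, WT replicates 1 and 3 differed the most of all replicate pairs (26.2 chi-square units for a gene on average). Their distance is therefore not particular to these envelope genes. The level rose from 13.9 ± 5.99 to 28.1 ± 4.61 CPM, with a log2 fold change of 1.01 ± 0.26 (SE; adjusted p = 0.0167, edgeR's quasi-likelihood test over all 12951 genes). Its transcript held no window of 100 bases found in another gene, and 0.22% of its windows of 50 bases were found in others. The call was lost without WT replicate 2 (adjusted p = 0.0554 by edgeR) and on leaving out replicate 1 (0.0618) or replicate 2 (0.0694) of MLST8-KO, with log2 fold changes of 1.04, 0.95 and 0.94. Among all fits that left out 1 sample, the log2 fold change ran from 0.72 (without WT replicate 3) to 1.34 (without WT replicate 1).

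ERV3-1 was also higher in MLST8-KO cells, but its locus needs care. ERV3-1 (Entrez gene 2086; chromosome 7, 64990809 to 65006743, minus strand, GRCh38) overlaps ZNF117, a zinc finger gene, and the read-through gene ERV3-1-ZNF117, which spans both. ERV3-1 was at 256.48, 282.38 and 214.62 counts in WT and at 386.93, 442.12 and 335.37 in MLST8-KO samples. All MLST8-KO samples were above all WT samples. The level rose from 17.3 ± 2.0 to 24.6 ± 2.94 CPM (log2 fold change 0.51 ± 0.13 SE, adjusted p = 0.0146 by edgeR's quasi-likelihood test), and the call was lost without MLST8-KO replicate 1 (adjusted p = 0.0584) or replicate 2 (0.0628). Thus 2 of the 5 envelope genes other than the ERVV pair were called, both higher, where 16.3% of all genes tested were called higher and 24.9% had every MLST8-KO sample above every WT sample. These 2 genes are also the only ones of the 5 that passed the filter on low counts.

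The rise of ERV3-1 was not seen in the locus as a whole. The read-through gene ERV3-1-ZNF117 was at 77.83, 90.87 and 68.08 counts in WT samples and at 83.46, 75.37 and 0 in MLST8-KO samples. ZNF117 was at 137.69, 133.76 and 119.3 counts in WT and at 66.61, 158.51 and 156.63 in MLST8-KO samples. MLST8-KO replicate 3 thus had no count given to the read-through gene, and replicate 1 had the lowest count for ZNF117. Neither gene passed the threshold (log2 fold change -0.71 ± 0.66 SE, adjusted p = 0.431, and -0.16 ± 0.26 SE, adjusted p = 0.672, by edgeR). Summed over the 3 genes, an alternative chosen after seeing the data, the counts were 472, 507.01 and 402 in WT and 537, 676 and 492 in MLST8-KO samples. The groups overlapped, and the log2 fold change of 0.18 ± 0.12 SE (95% interval -0.09 to 0.45) did not pass the threshold (adjusted p = 0.267 by edgeR). ERV3-1 took 53.4% to 55.7% of the summed counts in WT samples and 65.4% to 72.1% in MLST8-KO samples. Of windows of 50 bases in the ERV3-1 transcripts, 6.06% occurred in those of ZNF117. The read-through gene had no transcript in that comparison, so this share does not measure all the sequence shared within the locus. Whether the rise of ERV3-1 comes from the transcript or from the division of reads within the locus was not tested beyond this sum.

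**Figure D2:**
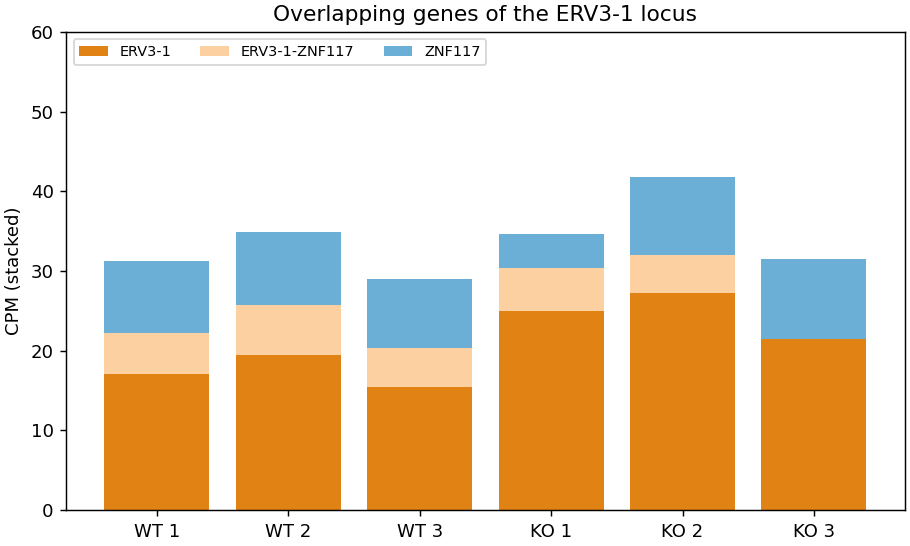
Stacked levels in CPM of ERV3-1, the read-through gene ERV3-1-ZNF117 and ZNF117 in each WT and MLST8-KO (KO) sample. The ERV3-1 segment is taller in all MLST8-KO samples, the read-through segment is missing in MLST8-KO replicate 3, and the full bars of the 2 groups overlap.

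The placental genes proper were low, and ERVFRD-1 and ERVH48-1 were at or near 0 in most samples. ERVW-1, which encodes syncytin-1 (chromosome 7, 92468380 to 92477986, minus strand), was at 6, 10 and 3 counts in WT and at 7, 10 and 5 in MLST8-KO samples. Without the filter on low counts its log2 fold change was 0.08 (95% interval -1.13 to 1.30, adjusted p = 0.937 by edgeR), and a change within this interval was not detectable at this depth. ERVFRD-1, which encodes syncytin-2 (chromosome 6, 11102489 to 11111732, minus strand), had 0 counts in all WT samples and 0, 1 and 0 in MLST8-KO samples. The upper limit for WT, set at 3 counts over the group, is then 0.0690 CPM. The exact Poisson 95% interval reached 0.0849 CPM, and both cover counting error alone. ERVH48-1, which encodes suppressyn (chromosome 21, 42916803 to 42925646, minus strand, annotated as a long noncoding RNA), had 1, 0 and 0 counts in WT and 26, 2 and 0 in MLST8-KO samples. Its groups overlapped, and 26 of the 28 MLST8-KO counts came from replicate 1, the library that holds the liver transcripts; the part of that library's other RNA in this value was not tested. Without the filter ERVH48-1 did not pass the threshold (adjusted p = 0.0622 by edgeR).

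Per transcript length, the order of the envelope genes turned over between the groups. In TPM, which divides by transcript length, WT cells had ERVV-1 at 41.8 ± 24.5, ERVV-2 at 32.2 ± 15.2, ERV3-1 at 9.91 ± 1.33, ERVMER34-1 at 8.93 ± 3.99 and ERVW-1 at 0.293 ± 0.172 (SD, n = 3), with ERVH48-1 and ERVFRD-1 at or near 0. The neighbours ERVV-1 and ERVV-2, and ERV3-1 and ERVMER34-1, overlapped in range, while both ERVV genes lay above ERV3-1 and ERVMER34-1 in every WT sample. In MLST8-KO cells ERVMER34-1 came first at 19.7 ± 3.70 TPM, then ERV3-1 at 15.2 ± 2.24, ERVV-1 at 6.68 ± 0.981, ERVV-2 at 5.06 ± 0.564, and, far below, ERVH48-1 at 0.540 ± 0.842 and ERVW-1 at 0.340 ± 0.115. The last 2 overlapped and have no order, since ERVH48-1 was above ERVW-1 in replicate 1 and below it in replicates 2 and 3. There the ranges of ERVMER34-1 and ERV3-1 overlapped, as did those of ERVV-1 and ERVV-2, but the former pair was above the latter in all 3 samples.

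The make-up of the envelope transcripts followed. The 7 genes summed to 63.2, 85.0 and 131 TPM in WT samples and to 50.8, 51.3 and 40.5 TPM in MLST8-KO samples. ERVV-1 and ERVV-2 together made up 64.0%, 75.1% and 89.7% of this sum in WT samples and 23.6%, 21.9% and 29.6% in MLST8-KO samples. ERVMER34-1 made up 20.01%, 11.1% and 3.59% in WT and 42.3%, 43.2% and 38.1% in MLST8-KO samples. No group overlapped the other in any of these 3 measures. Each measure contains the ERVV pair, which this contrast chose for its fall, so nothing is read from the separation. As the shares of a sample add up to a whole, a lower share of the ERVV pair raises the shares of the rest without any change in them.

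**Figure D3:**
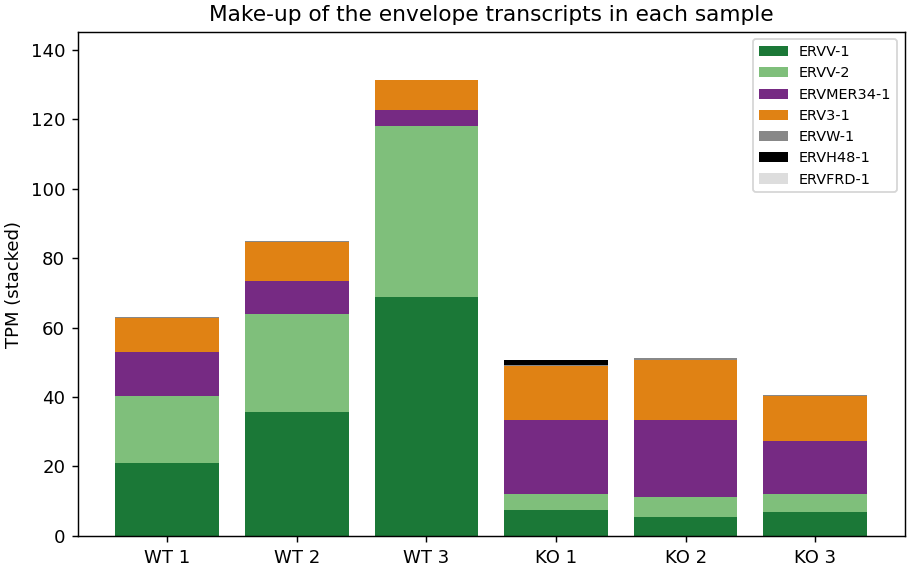
TPM of the 7 envelope genes stacked for each WT and MLST8-KO (KO) sample. ERVV-1 and ERVV-2 (greens) fill 64.0% to 89.7% of the WT bars and 21.9% to 29.6% of the MLST8-KO bars, and the WT bars differ in height from 63.2 to 131 TPM.

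The genes around ERVV-1 and ERVV-2 did not share the size of their difference. As the pair was chosen for its large fall in this contrast, nothing is read from the smaller differences of its neighbours. The pair lies in a cluster of KRAB zinc finger genes, and 13 genes of the table lay within 250 kb, of which 10 were tested. Only ZNF468 was called, and it was lower, at 547.75, 504.99 and 514.82 counts in WT and 428.51, 483.16 and 413.13 in MLST8-KO samples (log2 fold change -0.37 ± 0.09 SE, adjusted p = 0.0135 by edgeR). The 10 log2 fold changes ran from -0.41 (ZNF320) to 1.23 (ZNF816-ZNF321P), neither of which passed the threshold, with a median of -0.19. ZNF160, the nearest tested gene, 15.5 kb from ERVV-2, had a log2 fold change of -0.17 ± 0.11 SE (adjusted p = 0.264 by edgeR). Around all 7 envelope genes, 5 of 32 tested genes were lower and 0 higher, and their median was -0.13 on the log2 scale, beside 0.0045 over all genes tested; the lower genes were ZNF468, SCFD2 near ERVMER34-1 (-0.46), GATAD1 (-0.42) and FAM133B (-0.33) near ERVW-1, and SMIM13 (-0.30), which overlaps ERVFRD-1. The share called lower was near the 15.7% of all genes tested, while the 0 called higher stood beside 16.3% of all genes tested. Upper quartile scaling in edgeR gave 3 higher and 5 lower, DESeq2's size factors in edgeR gave 0 higher and 5 lower, and limma on log2(TPM + 1), which changes the test and the unit as well, gave 2 higher and 1 lower. The 5 calls became 8 without WT replicate 1, 3 without WT replicate 2 and 1 on leaving out MLST8-KO replicate 1. GATAD1 and SMIM13 lie beside syncytin genes that were themselves near 0.

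**Figure D4:**
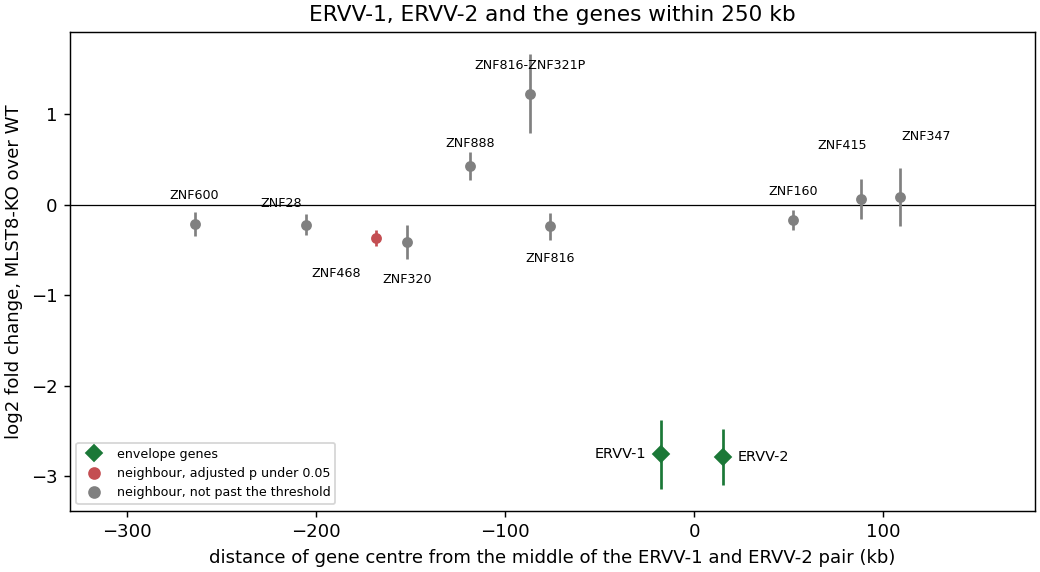
Log2 fold change of MLST8-KO over WT (vertical axis, bars are standard errors) for ERVV-1, ERVV-2 (green) and the 10 tested genes within 250 kb, against the distance in kb of the centre of each gene from the middle of the ERVV pair. The ERVV genes lie at -2.76 and -2.79, and the neighbours between -0.41 and 1.23, with ZNF468 (red) the only neighbour past the threshold.

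Receptors of the envelopes were expressed at high levels. SLC1A5 and SLC1A4 are the neutral amino acid transporters that syncytin-1 binds, and MFSD2A, a lipid transporter, is the receptor of syncytin-2. SLC1A5 was at 12988, 12417 and 11058 counts in WT and 9845, 9495 and 11541 in MLST8-KO samples and was lower (log2 fold change -0.36 ± 0.09 SE, adjusted p = 0.0179 by edgeR). SLC1A4 (0.10 ± 0.08 SE) and MFSD2A (0.06 ± 0.14 SE) did not pass the threshold. Among all genes tested, 15.7% were called lower and 32% in either direction. The call of SLC1A5 was not made by limma on log2(TPM + 1) or log2(TPM + 0.1), or without WT replicate 2, MLST8-KO replicate 1 or MLST8-KO replicate 2, since no receptor was called in those fits, and 2 receptors were called without WT replicate 3. The envelope genes whose products use these receptors were among the lowest of the 7.

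Of 8 genes that cut or assist retroviral envelopes, 2 were higher and 1 lower, and the median difference was -0.05 (log2). Of all genes tested, 16.3% were called higher and 15.7% lower, or 32% in either direction, so these 3 calls are near the background. FURIN, the protease best known for cutting envelope precursors, was at 1812, 1764 and 1694 counts in WT and 1726, 1767 and 1975 in MLST8-KO samples (log2 fold change -0.07 ± 0.08 SE, adjusted p = 0.537 by edgeR). The proprotein convertases PCSK5 (1.42 ± 0.43 SE) and PCSK7 (0.55 ± 0.13 SE) were higher, PCSK5 from only 9 to 13 counts in WT and 19 to 51 in MLST8-KO samples. LGALS1, which encodes galectin-1, was lower (-0.52 ± 0.17 SE). Among 14 genes of cell membrane fusion, 3 were higher (GJA1 at 1.07, PTDSS1 at 0.67 and ATP11A at 0.32) and 3 lower (ANXA5 at -0.39, ANXA1 at -0.38 and CAPN2 at -0.28), and the median difference was 0.10 (log2), with calls in each direction not far above the same background. Without WT replicate 1 the calls among the processing genes numbered 5, and they numbered 1 without WT replicate 2 and 1 on leaving out MLST8-KO replicate 1. The 6 calls among fusion genes became 2 and 3 in these last fits, in that order.

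Transcription factors of trophoblast were in part present. GCM1, the factor known to switch on the syncytin genes, had 2, 0 and 5 counts in WT and 0, 1 and 0 in MLST8-KO samples, and GATA3 at most 1 count in any sample. Of the 10 factors tested, 4 were higher and 1 lower, and the median difference was 0.34 (log2), where 16.3% of all genes tested were called higher and 15.7% lower. DLX3 had the largest difference, at 67, 26 and 8 counts in WT and 167, 101 and 90 in MLST8-KO samples (1.72 ± 0.48 SE, adjusted p = 0.0228 by edgeR). MSX2 (0.58), TP63 (0.47) and TFAP2C (0.30) were the other higher genes, and TP63 is also among the squamous markers given above. PPARG, a nuclear receptor needed for trophoblast fusion, was at 192, 211 and 192 counts in WT and 130, 181 and 140 in MLST8-KO samples and was lower (-0.53 ± 0.14 SE, adjusted p = 0.0200 by edgeR). No factor was called when WT replicate 2 was left out (0 of 10), 1 was called without replicate 1 or without replicate 2 of MLST8-KO, and 3 without replicate 3 of MLST8-KO.

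Of 35 tested genes listed for the silencing of retroelements, 13 were higher and 1 was lower. The list also holds TET1, TET2 and TET3, which act against DNA methylation. The higher genes were 37.1% of the list, against 16.3% of all genes tested, the median difference was 0.15 (log2), and 15 had every MLST8-KO sample above every WT sample, as did 24.9% of all genes. The largest difference was that of UHRF1, which brings DNA methyltransferase to replicated DNA, at 196, 130 and 78 counts in WT and 399, 397 and 368 in MLST8-KO samples (1.41 ± 0.22 SE, adjusted p = 0.00352 by edgeR). CHAF1B (0.95) and CHAF1A (0.65), subunits of a histone chaperone that acts at replication, HELLS (0.78), a chromatin remodeler, and TET2 (0.68) were also higher. The maintenance methyltransferase DNMT1 was at 761, 706 and 618 counts in WT and 1116, 1285 and 1099 in MLST8-KO samples (0.63 ± 0.09 SE, adjusted p = 0.00281 by edgeR). SETDB1, the histone methyltransferase recruited to retroelements, was at 493, 479 and 392 counts in WT and 678, 712 and 663 in MLST8-KO samples (0.47 ± 0.09 SE, adjusted p = 0.00577 by edgeR).
TRIM28, which recruits SETDB1, did not pass the threshold (-0.05 ± 0.08 SE, adjusted p = 0.625 by edgeR). KIAA1551, also called RESF1, a partner of SETDB1, was the lower gene (-0.54 ± 0.09 SE). Calls in the list fell to 6 higher and 1 lower without WT replicate 2, and to 7 higher and 1 lower without replicate 1 or without replicate 2 of MLST8-KO. Of these factors, UHRF1, DNMT1, HELLS, CHAF1A and CHAF1B are also known to rise in dividing cells. How this list bears on the envelope genes, which differed in both directions, was not tested.

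**Figure D5:**
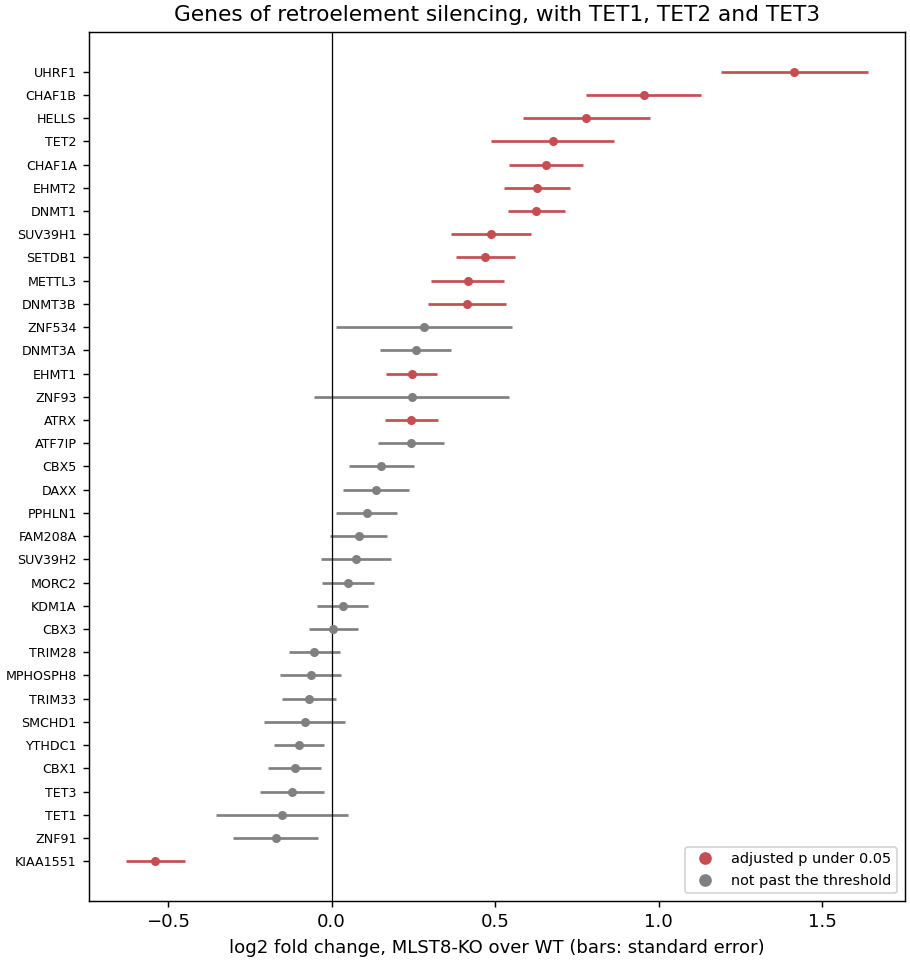
Log2 fold change of MLST8-KO over WT (horizontal axis, bars are standard errors) of the 35 tested genes listed for retroelement silencing, TET1, TET2 and TET3 included, with those past the threshold in red. The 13 higher genes run from ATRX and EHMT1 up to UHRF1 at 1.41, TRIM28 lies at -0.05, and KIAA1551 is the lower gene at -0.54.

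Of 32 tested genes that the host took from other retroelements or from transposases, 5 were higher and 7 lower, and the median difference was 0.04 (log2). The share called higher was near the 16.3% of all genes tested, and 15.7% of all genes were called lower. These 12 calls became 5 without WT replicate 2, 6 without WT replicate 3, 4 without replicate 1 or without replicate 2 of MLST8-KO, and 6 without its replicate 3. Among the higher genes were RAG1 (1.10 ± 0.24 SE), a transposase-derived recombinase, at 21, 22 and 23 counts in WT and 49, 64 and 42 in MLST8-KO samples, and the retrotransposon gag-derived genes RTL9 (0.91 ± 0.19 SE) and RTL10 (0.60 ± 0.12 SE). Among the lower genes were the transposase-derived THAP9 (-0.72 ± 0.17 SE) and PGBD4 (-0.71 ± 0.22 SE). PEG10, a gag-derived gene needed by the placenta, was at 1285, 1457 and 1665 counts in WT and 1167, 1393 and 1129 in MLST8-KO samples; it was lower (-0.39 ± 0.12 SE, adjusted p = 0.0368 by edgeR), although the groups overlapped in counts. Of the other loci named for endogenous retroviruses, HHLA3 and ERV3-1-ZNF117 were tested and neither was called.

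The genes with the pattern most like the summed ERVV level over the 6 samples, by Pearson's r of log2 CPM among 11185 genes with a mean of at least 50 counts, were SLC50A1, GPANK1, MKRN2, PITHD1 and SLC35C1, each with r rounding to 0.999. SLC50A1 was at 1664.99, 1782 and 2070 counts in WT and 1150, 1155 and 1160.85 in MLST8-KO samples, with a log2 fold change of -0.80 ± 0.11 SE. The order of the 3 WT samples was the same as for the ERVV pair, though the fold was far smaller. As the points form 2 groups and 1802 genes had an r above 0.9, the likeness is a description and marks no gene out.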

How the data were processed

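RNA-seq of 6 HCC2814 samples (3 WT, 3 MLST8-KO, grouped by their labels) was analysed from the deposited gene table. Per the paper and the submitters' processing notes, the authors used HISAT for alignment of filtered reads to GRCh38.p12 and Bowtie2 for the reference genes; read length, strandedness and the counting tool are not given in the sources used here. The authors deposited estimated counts per gene, which are not normalized, with TPM and FPKM, which are scaled by gene length and depth; FPKM was not used. A second deposited table holds only the authors' own comparison (p-values, q-values and fold changes) and was not used. Of the count values 12.4% were not whole, among them most values of the ERVV pair. The design had assumed whole counts, so the estimated counts were rounded before testing. Gene symbols turned into dates (25) were restored through Entrez identifiers.

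Tests used edgeR 4.0.16 in R 4.3.3 (filterByExpr, TMM, glmQLFit and glmQLFTest) without pairing, with Benjamini-Hochberg adjustment over 12951 genes and a threshold of 0.05. Totals were 14381673 to 15744154 per sample, and the upper limit for a gene with no read was 3 counts, or 0.191 to 0.209 CPM before TMM scaling. Within each group all pairs of replicates differed beyond sampling noise (6.77 to 26.2 chi-square units for a gene on average), and p-values measure the spread between these samples. The fit was tested on simulated data before use. Alternatives were DESeq2 1.42.0, edgeR without the filter, edgeR scaled by upper quartiles or by DESeq2's size factors, limma 3.58.1 on log2(TPM + 1) and log2(TPM + 0.1), a replicate block, summed near copies, and leaving out each sample.

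Envelope genes, gene lists and tests were chosen with earlier results of these data known. The genes named are the envelope genes, MLST8, genes within 250 kb, list members past the threshold or named for their role, and the 5 genes with the pattern most like the ERVV sum. Coordinates and transcripts are GENCODE (GRCh38), aligned with Biopython 1.88, and promoters are RefSeq (GRCh38.p14). Figures were drawn with matplotlib 3.10.9.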

Additional observations from a re-analysis of the deposited data

How the results depend on the processing

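The fall of ERVV-1, ERVV-2 and their sum and the rise of ERVMER34-1 kept their direction under all alternatives run. For the ERVV pair this is a description, since its fall in these same samples chose it. Leaving out 1 sample moved the log2 fold change of the ERVV sum between -3.08 and -2.24. With 1 sample left out, genes higher in MLST8-KO cells numbered 971 to 2692 and genes lower 850 to 2651, and calls numbered 0 to 2 among the 5 other envelope genes, 0 to 2 among receptors, 1 to 5 among processing genes, 0 to 7 among trophoblast factors, 7 to 13 among genes of retroelement silencing, 4 to 15 among other retroelement-derived genes, 2 to 8 among fusion genes and 1 to 8 among genes near the envelope genes. Of the 5 other envelope genes, 1 was called without WT replicate 2, and 0 without replicate 1 or without replicate 2 of MLST8-KO, where edgeR gave adjusted p-values of 0.0584 to 0.0694 for ERVMER34-1 and ERV3-1. The share of ERVV-1 in the pair ranged from -1.27 to 4.96 points (MLST8-KO minus WT) and turned sign without WT replicate 1 (-0.40) and MLST8-KO replicate 1 (-1.27). Limma called 1134 genes lower on log2(TPM + 1) and 1132 on log2(TPM + 0.1), against 2030 with edgeR, with 0 receptors and 3 genes near the envelope genes on both scales; upper quartile scaling called 8 of the latter. Higher genes were 51.0% of all calls with edgeR, 62.0% with upper quartile scaling and 71.0% with limma on log2(TPM + 1); the cause was not tested. ERV3-1 summed with its overlapping genes gave 0.18. Same-numbered samples deviated together only weakly (r = 0.105, 0.0565 and 0.140), so the numbers were not taken to pair the samples, although each sample correlated best with its own number. With the replicate block, 2261 genes were higher and 2157 lower, the ERVV sum was at -2.65, and no call of an envelope gene changed. Depth limits the values of ERVW-1, ERVH48-1 and ERVFRD-1.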
